A study of Rattus norvegicus with 6 samples.

Results

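The genes described here encode 10 core proteins of the basement membrane: the laminin alpha chains Lama2, Lama4 and Lama5, the beta chains Lamb1 and Lamb2, the gamma chain Lamc1, the nidogens Nid1 and Nid2, and the collagen IV chains Col4a1 and Col4a2. They were read by gene name from a deposited table of 33300 genes, and each of the 10 names had a single row. The table covers tendon stem/progenitor cells from rat, sequenced as 6 RNA-seq libraries after 7 days of culture. In 3 libraries the F12 medium held N-acetyl-L-cysteine (NAC, a thiol antioxidant and cysteine source) at 500 uM, and in 3 the F12 medium was plain (Control). The labels place all 6 libraries in tenogenic differentiation, and they give the source as tendon and also call the cells mesenchymal stem cells. The sources used here give neither strain nor age of the animals. The series title names integrin α5/β1, PI3K and AKT signaling and tenogenic differentiation as its subject. The labels do not say whether the replicates came from separate animals or cultures, so a p-value speaks of the spread among these libraries alone, which may be technical.

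The 10 genes were chosen with the NAC against Control results of these same libraries known, so their differences between the groups are a description and carry no p. Values are FPKM (fragments per kilobase of a gene, relative to depth), so levels can be set side by side between genes. A fold change is a log2 difference, NAC minus Control, of FPKM + 1, a scale that makes the change of weakly expressed genes look smaller. RNA came from whole cultures, so fewer cells of a type and less RNA per cell cannot be told apart in any value below.

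A basement membrane is a thin sheet of matrix on which epithelia and vessels rest and which wraps muscle, nerve and fat cells. Laminins are heterotrimers of an alpha, a beta and a gamma chain that assemble into a network bound to integrins and dystroglycan at the cell surface. Collagen IV forms a covalently crosslinked network beside it, and nidogens and the proteoglycan perlecan join the networks. In tendon, laminin and collagen IV are known from the sheaths around the fascicles, from vessels and from the thin matrix around the cells.

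The libraries held 13624097 to 14941949 reads in NAC and 12487215 to 14079556 in Control. Of 12733 genes with a mean of at least 1 FPKM, limma with a threshold of 0.05 on the Benjamini-Hochberg adjusted p found 774 (6.08%) higher and 346 (2.72%) lower in NAC. That split depends on scaling: it was 467 higher and 3722 lower when the reads were divided by library totals, which moved the median log2 fold change of all genes from -0.0063 to -0.1586, and 568 higher and 407 lower with quantile normalization. The total by which the authors divided was 0.909 to 0.925 times the reads in NAC libraries and 1.020 to 1.042 times in Control libraries.

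The promoters of these genes are shown because all 10 genes moved in the same direction and because the collagen IV pair is known to be transcribed from a shared, bidirectional promoter. The genes were chosen with this contrast known, and a part of the promoters in that direction was not tested. RefSeq windows of build GRCr8, from 250 bases before to 50 bases after the gene start, were matched by symbol for 8 of the 10 genes, Lamb2 and Nid2 being the others. The Col4a1 window (chr16:84885347-84885646, plus strand, 5′ to 3′) holds the starts of both collagen IV genes, Col4a2 reading away on the minus strand from 84885520 and Col4a1 on the plus strand from 84885597. The 76 bases between the starts are in capitals. A minus-strand start as close as the 77 bases seen here was found for 292 of 16845 plus-strand genes (1.73%).
Col4a1 and Col4a2: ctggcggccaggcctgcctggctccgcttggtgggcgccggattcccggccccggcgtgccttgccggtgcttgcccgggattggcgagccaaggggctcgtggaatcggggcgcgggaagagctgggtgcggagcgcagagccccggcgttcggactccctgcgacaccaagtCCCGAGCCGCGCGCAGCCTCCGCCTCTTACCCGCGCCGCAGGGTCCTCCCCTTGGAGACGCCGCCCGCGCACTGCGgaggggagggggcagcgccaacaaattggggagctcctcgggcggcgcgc
The next windows, of Lamc1 (chr13:68051937-68052236, minus strand), Lama5 (chr3:187695925-187696224, minus strand) and Lamb1 (chr6:53562846-53563145, plus strand), are those of the laminin genes with the most matches to the GC box, the motif bound by Sp-family factors. They read 5′ to 3′ in the direction of the gene, with each GGGCGG, on either strand, in capitals.
Lamc1: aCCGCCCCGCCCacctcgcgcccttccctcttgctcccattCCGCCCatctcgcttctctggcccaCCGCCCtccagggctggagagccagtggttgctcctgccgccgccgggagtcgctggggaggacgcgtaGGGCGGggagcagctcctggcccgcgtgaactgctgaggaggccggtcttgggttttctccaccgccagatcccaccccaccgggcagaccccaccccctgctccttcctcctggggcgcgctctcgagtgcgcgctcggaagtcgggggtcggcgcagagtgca
Lama5: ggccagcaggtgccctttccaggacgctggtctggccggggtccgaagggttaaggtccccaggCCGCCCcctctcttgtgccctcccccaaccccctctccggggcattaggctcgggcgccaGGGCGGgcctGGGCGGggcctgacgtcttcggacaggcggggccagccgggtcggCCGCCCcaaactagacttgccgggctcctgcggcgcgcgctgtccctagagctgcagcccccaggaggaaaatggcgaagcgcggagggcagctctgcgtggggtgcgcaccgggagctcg
Lamb1: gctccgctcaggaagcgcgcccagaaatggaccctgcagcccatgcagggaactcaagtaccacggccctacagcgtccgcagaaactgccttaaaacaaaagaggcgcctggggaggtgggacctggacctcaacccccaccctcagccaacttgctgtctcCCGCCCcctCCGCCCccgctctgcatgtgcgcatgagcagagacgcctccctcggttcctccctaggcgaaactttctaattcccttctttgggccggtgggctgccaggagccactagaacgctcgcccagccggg

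Short motifs were searched on both strands of each window, and matches may overlap. GGGCGG (the GC box) occurred in 7 of the 8 windows (87.5%), against 33.1% of all 33469 windows in the RefSeq table. Lamc1 had 5 matches, Lama5 had 4, Lamb1, Nid1, Col4a1 and Col4a2 had 2 each, Lama2 had 1, and Lama4 was the window without one. The 2 matches of Col4a1 and the 2 of Col4a2 are the same bases, since their windows share 176 bases. CCAAT was present in 4 of the 8 windows (50%), against 37.5% of all windows, and TATAAA in 1 (12.5%), that of Lama4, against 14.2% of all windows. The CCAAT match of Col4a2 is on the same bases as 1 of the matches of Col4a1. The shares of all windows were neither matched for GC content nor restricted to the genes tested here. GC content was 75.0% in the Col4a1 window, 73.7% in that of Col4a2, 73.0% in that of Lama5 and 71.7% in that of Lamc1, against a median of 51.7% over all windows. Lama4 at 55.0% and Lama2 at 57.0% were the lowest of the 8. CpG dinucleotides, counted as observed over expected, ranged from 0.16 in Lama2 to 0.91 in Col4a2, with a median of 0.39 over all windows. A match is a run of letters, not a bound site.

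**Figure D1:**
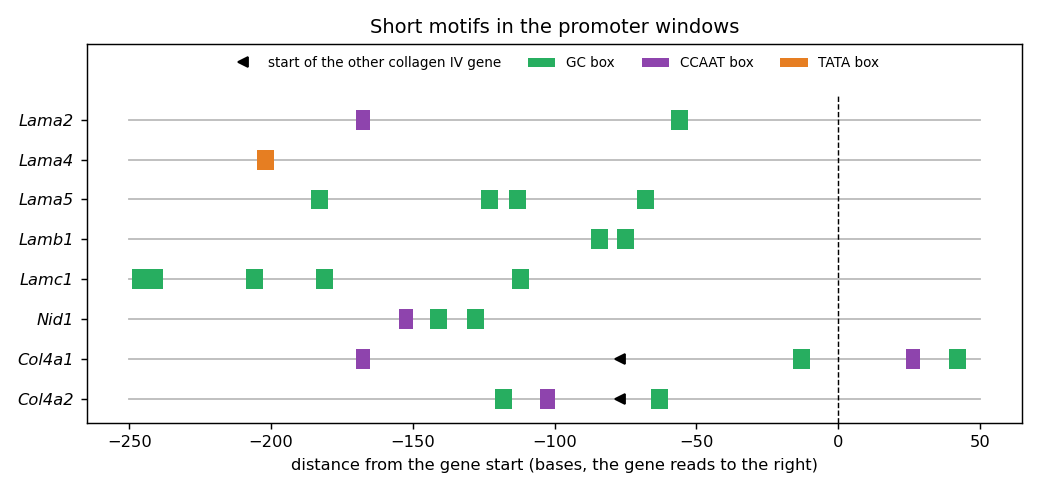
Positions of short motifs in the RefSeq (GRCr8) promoter windows of 8 basement membrane genes; the x axis is the distance from the gene start in bases, coloured blocks are matches on either strand, and black triangles mark the start of the other collagen IV gene. GC boxes stand in 7 of the 8 windows, with 5 in Lamc1 and none of these letters in Lama4.

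All 10 genes were higher in NAC, and for each of them every NAC library lay above every Control library. The median log2 fold change of the 10 was 0.70, with a range of 0.31 to 1.17, beside -0.0063 for all tested genes. All 10 also passed the limma threshold, against 6.08% of tested genes that passed in that direction, and a complete separation with NAC above was seen for 2121 of 12733 tested genes (16.7%). Since the genes were chosen on this contrast, nothing is read from those counts. Most of the 10 are abundant, 8 having a mean of at least 100 FPKM, and among the 688 tested genes of that abundance 216 (31.4%) were higher in NAC. Their summed FPKM was 2837, 2827 and 2631 in NAC libraries 1 to 3, against 1651, 1702 and 1614 in Control libraries 1 to 3. As a share of the reads of a library, which does not depend on the authors' scaling, the 10 genes took 1.56%, 1.55% and 1.47% in NAC, against 1.04%, 1.05% and 1.02% in Control. NAC library 3 was the lowest of the NAC libraries for 9 of the 10 genes, and Control library 2 was the highest of the Control libraries for 5 of them.

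**Figure D2:**
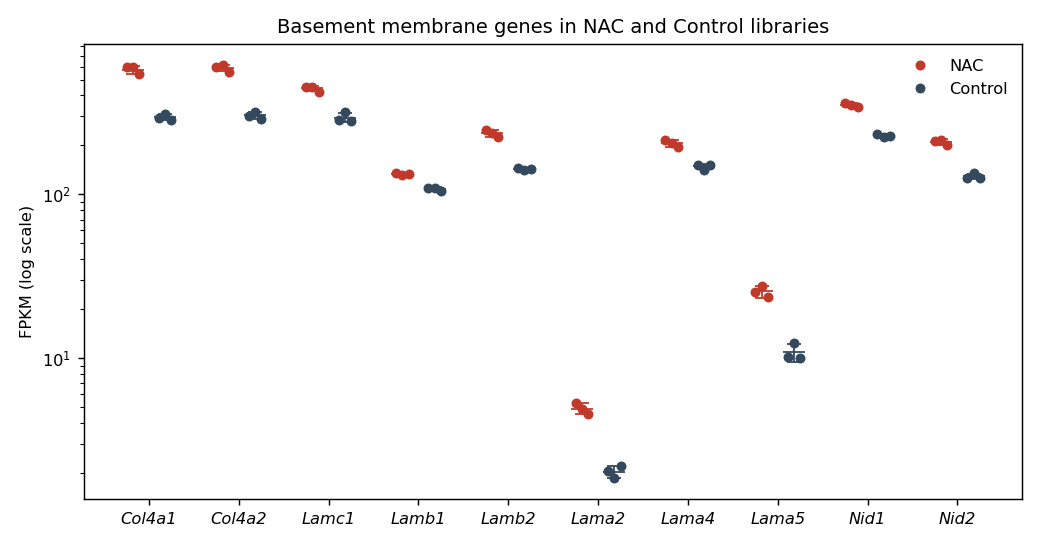
FPKM of the 10 basement membrane genes (y axis, log scale) in the 3 NAC libraries (left of each pair) and the 3 Control libraries (right); points are libraries 1 to 3, bars the mean and SD. The groups separate for every gene, from Col4a2 at 589 ± 27 FPKM in NAC down to Lama2 at 4.92 ± 0.364 FPKM in NAC.

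Cultures of this kind can hold other cells that make a basement membrane, and the part of these in the results was not tested. Summed endothelial markers lay at 20.4 to 22.9 FPKM in NAC and 19.9 to 21.6 FPKM in Control, nearly all of it Egfl7 (21.1 ± 1.33 FPKM in NAC and 20.1 ± 0.709 FPKM in Control; SD, n = 3 each), while the defining endothelial genes Cdh5, Emcn and Cldn5 were listed at 0. Vwf, another endothelial gene, was higher in every NAC library at a very low level, with 0.15, 0.167 and 0.252 FPKM in NAC, against 0.0658, 0.0801 and 0.0849 FPKM in Control. Kdr had 0.453, 0.43 and 0.288 FPKM in NAC and 0.275, 0.36 and 0.118 FPKM in Control, which overlap. Epithelial markers summed to 0.0204 to 0.114 FPKM in NAC and 0 to 0.0539 FPKM in Control, with Esrp1 the highest over all 6 libraries, and all 8 had at most 3 reads in every library. Endothelial sums thus overlapped between the groups, and of the 9 endothelial genes found only Egfl7 reached the 1 FPKM minimum. Pericyte and smooth muscle markers, led by Acta2, summed to 317 to 386 FPKM in NAC and 418 to 514 FPKM in Control, with Myh11 lower (17.2 ± 1.40 FPKM in NAC and 21.9 ± 0.486 FPKM in Control, SD, n = 3 each, limma adjusted p = 0.0269) and Rgs5 at or near 0. In the same list Cspg4 lay above in every NAC library (21.3 ± 0.440 FPKM in NAC and 18.3 ± 1.92 FPKM in Control, SD, n = 3 each, limma adjusted p = 0.128). Acta2 alone made up most of the sum (278 ± 29.6 FPKM in NAC and 366 ± 43.3 FPKM in Control, SD, n = 3 each, limma adjusted p = 0.0655). It passed as lower with a stricter filter of 5 FPKM, quantile normalization, library totals and voom (lowest limma adjusted p 0.0101). The muscle gene Des averaged 3.07 ± 0.172 FPKM in NAC and 2.37 ± 0.607 FPKM in Control. The pericyte gene Mcam averaged 1.70 ± 0.241 FPKM in NAC and 2.05 ± 0.151 FPKM in Control (SD, n = 3 each). Both overlapped between the groups. The smooth muscle gene Cnn1 averaged 33 ± 4.23 FPKM in NAC and 41 ± 7.68 FPKM in Control (SD, n = 3 each), which overlap. The smooth muscle genes Myh11, Acta2 and Cnn1 thus all had lower means in NAC, while the mean of Des was higher. The pericyte genes Cspg4 and Mcam differed in direction. Schwann and perineurial markers, led by Slc2a1, summed to 111 to 121 FPKM in NAC and 108 to 126 FPKM in Control, with Sox10 at 0. S100b, a Schwann gene of that list, had 46.9, 47.7 and 52.6 FPKM in NAC and 46.1, 54.2 and 49.7 FPKM in Control. Its groups overlapped, and it made up most of the sum beside Slc2a1. Skeletal muscle markers, led by Tnnt3, summed to 29.5 to 32.4 FPKM in NAC and 27.6 to 30.7 FPKM in Control, with Pax7 and Myf5 at 0. The nerve sheath and muscle sums overlapped between the groups, whereas the pericyte and smooth muscle sum was lower in every NAC library. Adipocyte markers, mostly Cfd and Fabp4, summed to 6.78 to 7.41 FPKM in NAC and 3.04 to 5.45 FPKM in Control, with 1 of the 2 tested, Cfd, passing as higher (3.48 ± 0.585 FPKM in NAC and 1.14 ± 0.641 FPKM in Control, SD, n = 3 each, limma adjusted p = 0.0324) and Adipoq at or near 0. Macrophage and leukocyte markers, led by Cd14, summed to 24.4 to 25.6 FPKM in NAC and 23.3 to 26.6 FPKM in Control, with Ptprc at 0. Adipocyte sums were thus higher in every NAC library, at a low level, and leukocyte sums overlapped. The tendon and fibroblast list, which stands for the labelled cells, summed to 13623 to 14430.5 FPKM in NAC and 9609 to 9674 FPKM in Control, led by Dcn. Col1a1 made up most of that difference (5453 ± 253 FPKM in NAC and 2731 ± 124 FPKM in Control, SD, n = 3 each, limma adjusted p = 0.000406). Of the 10 genes 3 were higher (Col1a1, Col1a2 and Dcn), beside 6.08% of all tested genes and 31.4% of those with a mean of at least 100 FPKM. The call of Dcn was lost with no filter (limma adjusted p = 0.156) and with quantile normalization (log2 fold change 0.05, limma adjusted p = 0.563). The tendon transcription factors Scx and Mkx and the tendon membrane protein Tnmd were present at low levels. Scx averaged 11.6 ± 0.700 FPKM in NAC and 12.5 ± 1.30 FPKM in Control, Mkx 3.90 ± 1.07 FPKM in NAC and 5.28 ± 0.394 FPKM in Control, and Tnmd 2.55 ± 0.537 FPKM in NAC and 1.41 ± 0.369 FPKM in Control (SD, n = 3 each). The tendon matrix genes Thbs4 (797 ± 45.5 FPKM in NAC and 584 ± 128 FPKM in Control) and Fmod (91.2 ± 7.37 FPKM in NAC and 76.9 ± 9.29 FPKM in Control; SD, n = 3 each) were more abundant, and none of these 5 genes passed the limma test (adjusted p 0.0909 to 0.519).

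Collagen IV, the network-forming collagen of basement membranes, was the most abundant component. Its usual trimer joins a pair of Col4a1 chains with a single Col4a2 chain. Col4a1 (ENSRNOG00000016281; chromosome 16, 83522162 to 83632153, plus strand, in the deposited coordinates, whose build is unknown here) had 594, 592 and 537 FPKM in NAC libraries 1 to 3, against 290.3, 308 and 284 FPKM in Control libraries 1 to 3. NAC libraries 1 and 2 were nearly alike and library 3 was lower, yet the lowest NAC library was still far above the highest Control library. The means were 575 ± 32.4 FPKM in NAC and 294 ± 12.6 FPKM in Control (SD, n = 3 each), a ratio of 1.95 and a log2 fold change of 0.96 (SE 0.054). These values rest on 44534 to 53113 reads per NAC library and 25800 to 27379 per Control library.

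Col4a2 (ENSRNOG00000023972; chromosome 16, 83387364 to 83438561, minus strand) had 597, 611 and 559 FPKM in NAC, against 301, 317 and 289 FPKM in Control. It followed Col4a1 closely, with the same low NAC library 3 and high Control library 2. The means were 589 ± 27 FPKM in NAC and 303 ± 14 FPKM in Control (SD, n = 3 each), and the ratio of 1.95 and the log2 fold change of 0.96 (SE 0.051) matched those of Col4a1. The ratio of Col4a2 to Col4a1 within a library was 1.01, 1.03 and 1.04 in NAC and 1.04, 1.03 and 1.02 in Control, so the groups overlapped and the 2 transcripts kept to one proportion. In the deposited coordinates the 2 gene models lie 83600 bases apart, unlike the adjoining starts of the RefSeq annotation.

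Lamc1, the gamma chain of most laminins and the partner that nidogen binds, was the most abundant laminin gene (ENSRNOG00000002680; chromosome 13, 70656727 to 70783515, minus strand). It had 451, 452 and 421 FPKM in NAC, against 284, 315 and 279.9 FPKM in Control. Control library 2 stood above the other Control libraries but well below every NAC library. Means were 441 ± 17.6 FPKM in NAC and 293 ± 19.3 FPKM in Control (SD, n = 3 each), 1.51 times and a log2 fold change of 0.59 (SE 0.057).

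The beta chains differed in how far they moved. Lamb2, the beta chain known from the neuromuscular synapse, the kidney glomerulus and vessel walls (ENSRNOG00000047768; chromosome 8, 117268337 to 117280517, plus strand), had 246, 235 and 222 FPKM in NAC, against 144, 140.2 and 143 FPKM in Control. The Control libraries lay within a few FPKM of each other, and all NAC libraries were far above them. Means were 234 ± 11.8 FPKM in NAC and 142 ± 1.78 FPKM in Control (SD, n = 3 each), 1.65 times, with a log2 fold change of 0.72 (SE 0.044). Lamb1, the more widespread beta chain (ENSRNOG00000005678; chromosome 6, 50528823 to 50596079, plus strand), had 135, 131 and 133 FPKM in NAC, against 109, 109 and 105 FPKM in Control. Its libraries lay close together within each group, and its ratio between the groups was the smallest of the 10 genes. Means were 133 ± 2.20 FPKM in NAC and 107 ± 2.15 FPKM in Control (SD, n = 3 each), 1.24 times, with a log2 fold change of 0.31 (SE 0.034). Under other scalings the log2 fold change of Lamb1 was 0.14 with library totals and 0.21 with quantile normalization. Lamb2 made up 64.5%, 64.2% and 62.5% of the summed FPKM of both beta chains in NAC, against 56.9%, 56.3% and 57.6% in Control. That share is taken within a library, so dividing a library by any total leaves it as it is.

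The alpha chains, which carry the main cell-binding domains of a laminin, were less abundant than the gamma chain and spread over a wide range. Lama4 has a shortened amino-terminal arm and is known from vessels, fat and nerve (ENSRNOG00000000599; chromosome 20, 44060731 to 44209614, plus strand). It had 214, 206 and 193 FPKM in NAC, against 151, 141 and 150.2 FPKM in Control. It was the main alpha chain in every library, and its groups did not overlap. Means were 204 ± 10.6 FPKM in NAC and 147 ± 5.77 FPKM in Control (SD, n = 3 each), 1.38 times, with a log2 fold change of 0.47 (SE 0.051), which was 0.29 with library totals. Fam229b, on the other strand, overlaps Lama4 and lay at 1.64 to 3.31 FPKM. Whether counting used strand is unknown here, so reads of the overlap cannot be assigned.

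Lama5, the alpha chain of many epithelial and vascular basement membranes (ENSRNOG00000053691; chromosome 3, 175553045 to 175601127, minus strand), had 25.3, 27.7 and 23.5 FPKM in NAC, against 10.1, 12.4 and 9.96 FPKM in Control. NAC and Control library 2 were each the highest of their group. Means were 25.5 ± 2.12 FPKM in NAC and 10.8 ± 1.36 FPKM in Control (SD, n = 3 each), 2.36 times, and the log2 fold change was 1.17 (SE 0.096). It was the highest of the 10 genes on this scale, while Lama2 came first by ratio of means (2.43), with a pseudocount of 0.1 (1.24 for Lama2, 1.23 for Lama5) and with voom (1.27 for Lama2, 1.24 for Lama5). The values rest on 3355 to 4267 reads per NAC library and 1580 to 1786 per Control library.

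Lama2, the alpha chain of muscle and peripheral nerve laminin, whose loss causes a congenital muscular dystrophy in humans (ENSRNOG00000011134; chromosome 1, 18491384 to 19143269, plus strand), was the least abundant. It had 5.31, 4.87 and 4.59 FPKM in NAC, against 2.04, 1.85 and 2.20 FPKM in Control. Even at this low level the groups were far apart. The ratio of the means, 4.92 ± 0.364 FPKM in NAC and 2.03 ± 0.176 FPKM in Control (SD, n = 3 each), was 2.43, and the log2 fold change was 0.97 (SE 0.090). The added 1 FPKM lowers this fold change more than those of the abundant genes. Reads numbered 684, 628 and 548 in NAC and 267, 223 and 306 in Control. The genes RGD1560695 and U6, whose models overlap Lama2, were listed at 0 in all libraries.

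Lama4 made up 87.5%, 86.3% and 87.3% of the summed FPKM of the 3 alpha chains in NAC, against 92.5%, 90.8% and 92.5% in Control. The share was thus lower in every NAC library, while Lama4 itself was higher. Lama5 relative to Lama4 was 0.119, 0.135 and 0.122 in NAC, against 0.0671, 0.0881 and 0.0663 in Control. Lama2 relative to Lama4 was 0.0249, 0.0237 and 0.0238 in NAC, against 0.0135, 0.0131 and 0.0146 in Control. The rarer alpha chains thus took a larger share of alpha chain transcripts in NAC.

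The nidogens are rod-like glycoproteins that bind the laminin gamma chain and collagen IV. Nid1 (ENSRNOG00000002461; chromosome 17, 90553394 to 90627101, minus strand) had 359, 352 and 340.0 FPKM in NAC, against 234, 223 and 227 FPKM in Control. The libraries of each group lay close together. Means were 350.4 ± 9.56 FPKM in NAC and 228 ± 5.66 FPKM in Control (SD, n = 3 each), 1.54 times, with a log2 fold change of 0.62 (SE 0.037). Nid2, the paralog with overlapping roles in the mouse (ENSRNOG00000000341; chromosome 15, 4894213 to 4951917, minus strand), had 210.0, 215 and 198 FPKM in NAC, against 126, 134 and 125 FPKM in Control. Control library 2 was the highest Control library, as for collagen IV and Lamc1. Means were 208 ± 8.50 FPKM in NAC and 129 ± 5 FPKM in Control (SD, n = 3 each), 1.62 times, with a log2 fold change of 0.69 (SE 0.046). Nid1 relative to Nid2 was 1.71, 1.64 and 1.71 in NAC and 1.86, 1.66 and 1.81 in Control, which overlap.

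By level in NAC the order was Col4a2, Col4a1, Lamc1, Nid1, Lamb2, Nid2, Lama4, Lamb1, Lama5 and Lama2, where Col4a2 and Col4a1 overlapped across libraries, as did Nid2 and Lama4. In Control the order was Col4a2, Col4a1, Lamc1, Nid1, Lama4, Lamb2, Nid2, Lamb1, Lama5 and Lama2, where the first 3 genes overlapped with their neighbours, as did Lama4 and Lamb2. Collagen IV thus stood clear of Lamc1 in NAC and level with it in Control. The ratio of Col4a1 to Lamc1 was 1.32, 1.31 and 1.28 in NAC, against 1.02, 0.977 and 1.01 in Control. Summed nidogens, alpha chains and beta chains, each relative to Lamc1, overlapped between the groups. Nid1 and Nid2 summed to 1.26, 1.25 and 1.28 times Lamc1 in NAC and 1.27, 1.13 and 1.26 times in Control. The 3 alpha chains summed to 0.542, 0.527 and 0.524 times Lamc1 in NAC and 0.575, 0.492 and 0.580 times in Control. Both beta chains summed to 0.845, 0.810 and 0.844 times Lamc1 in NAC and 0.888, 0.789 and 0.884 times in Control. Summed alpha, beta and nidogen transcripts thus kept their proportion to the gamma chain within the spread of the libraries, while collagen IV took a larger one; the ratios are descriptions of genes chosen on this contrast and were not tested.

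**Figure D3:**
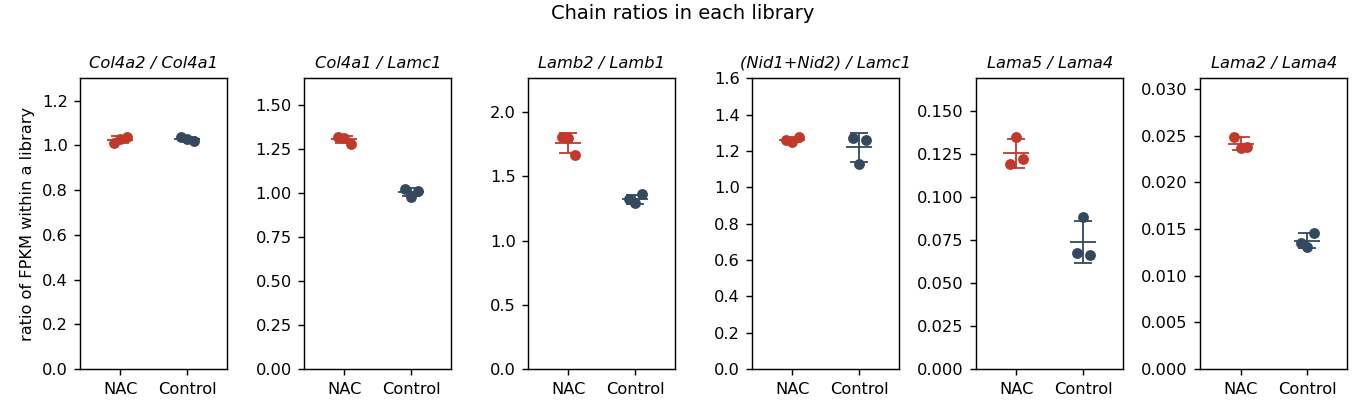
Ratio of FPKM between basement membrane genes within a library (y axes, from 0) in the 3 NAC libraries (left) and the 3 Control libraries (right) of each panel; points are libraries 1 to 3, bars the mean and SD. Col4a2 over Col4a1 and summed nidogens over Lamc1 overlap between the groups, while Col4a1 over Lamc1, Lamb2 over Lamb1 and Lama5 and Lama2 over Lama4 lie higher in every NAC library.

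The genes with the most similar profile over the 6 libraries were found as the smallest root mean square difference between log2 values centred on each gene's mean. For Col4a1 the nearest of all was Col4a2, at 0.016. Outside the 10 genes they were Aebp1, a secreted collagen-binding protein, at 0.054 (626, 591 and 545 FPKM in NAC, against 321, 318 and 311 FPKM in Control), the receptor gene Adcyap1r1 at 0.055 and Astn2 at 0.056. For Lamc1 they were Olfm1 at 0.025 (44.5, 46.0 and 43.3 FPKM in NAC, against 27.4, 31.5 and 27.8 FPKM in Control), Il1rn at 0.037 and Psap at 0.038, all nearer than the nearest of the 10 genes, Nid2, at 0.054. For Nid1 they were the mitochondrial gene Mt-atp6 at 0.020 (2726, 2605 and 2570.2 FPKM in NAC, against 1812, 1712 and 1722 FPKM in Control), Isyna1 at 0.031 and the secreted protease gene Htra1 at 0.032, against 0.054 for Lamb2. Nid1 and Lamc1 thus had nearer genes outside the 10 than among them. The search outside ran over the named genes among all 12733 tested, a far larger pool than the 10. A nearer gene there is likely from the size of the pool alone. That pool also held other basement membrane genes, so nothing is read from this about the basement membrane.

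Other genes of the pathway were grouped in 6 further lists, written with earlier results of these data known. Of 91 listed genes 88 were found and 71 tested, and 34 were higher and 2 lower in NAC, with a median log2 fold change of 0.24 beside -0.0063 for all tested genes. All adjusted p-values below are from limma with Benjamini-Hochberg adjustment over the 12733 tested genes, of which 6.08% were higher and 2.72% lower. Among tested genes with a mean of at least 100 FPKM, 31.4% were higher. The folding and protease lists below hold many genes of that abundance, so 6.08% is a low mark for them.

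Among other laminin and collagen IV chains, 3 of the 4 tested were higher, with a median log2 fold change of 0.65. Col4a5, a chain of the minor collagen IV networks, had 12.3, 10.4 and 10.9 FPKM in NAC, against 5.93, 6.30 and 6.28 FPKM in Control (log2 fold change 0.77, SE 0.071, adjusted p = 0.00238). Col4a4 averaged 25.1 ± 2.68 FPKM in NAC and 13.3 ± 2.44 FPKM in Control (SD, n = 3 each, adjusted p = 0.0122). Its call was lost without NAC library 1 (adjusted p = 0.0528) or NAC library 2 (adjusted p = 0.0559). Lamb3, a beta chain of epithelial laminin, averaged 2.37 ± 0.363 FPKM in NAC and 1.32 ± 0.182 FPKM in Control (SD, n = 3 each, adjusted p = 0.0496), a call that ended when any 1 library was left out (adjusted p 0.0597 to 0.145). Lama1, Lamc3 and Col4a6 lay under the 1 FPKM minimum.

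The proteoglycans and multiplexins, which carry heparan or chondroitin sulfate chains, were likewise higher: all 4 tested passed, with a median log2 fold change of 1.05. Hspg2, the gene of perlecan, is listed in the deposited table under a clone-based older name and had 260.0, 274 and 227 FPKM in NAC, against 111, 119 and 122 FPKM in Control (log2 fold change 1.10, SE 0.075, adjusted p = 0.000636). It was the most abundant gene of its list. Col18a1, the precursor of endostatin, averaged 81.5 ± 7.19 FPKM in NAC and 40.2 ± 3.59 FPKM in Control (SD, n = 3 each, adjusted p = 0.00168). Col15a1, its relative in muscle and vessels, averaged 21.5 ± 0.785 FPKM in NAC and 9.62 ± 2.84 FPKM in Control (SD, n = 3 each, adjusted p = 0.0124). Agrn, the agrin that organises the neuromuscular synapse, averaged 11 ± 0.904 FPKM in NAC and 7.42 ± 0.375 FPKM in Control (SD, n = 3 each, adjusted p = 0.0112). Without NAC library 2 the list held 2 calls, as Col15a1 (adjusted p = 0.0558) and Agrn (adjusted p = 0.0570) were lost, and without NAC library 1 Col15a1 was lost (adjusted p = 0.0562).

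Of 12 tested glycoproteins associated with basement membranes, 5 were higher and 1 lower, with a median log2 fold change of 0.30. Ecm1, a secreted partner of perlecan and laminin, averaged 43.5 ± 1.55 FPKM in NAC and 28.6 ± 0.833 FPKM in Control (SD, n = 3 each, log2 fold change 0.59, adjusted p = 0.00101). Sparc, a collagen-binding protein and chaperone of collagen IV, was the most abundant, with 4117 ± 146 FPKM in NAC and 2984 ± 52.5 FPKM in Control (SD, n = 3 each, adjusted p = 0.00217). With quantile normalization its log2 fold change was 0.03 (adjusted p = 0.63) in place of 0.46. Tgfbi averaged 41.6 ± 3.10 FPKM in NAC and 22.8 ± 4.17 FPKM in Control (SD, n = 3 each, adjusted p = 0.0138, and 0.0587 without NAC library 2). Fbln1, a fibulin that binds laminin and nidogen, averaged 221 ± 13.6 FPKM in NAC and 149 ± 19.2 FPKM in Control (SD, n = 3 each, adjusted p = 0.0187). Without NAC library 1 it had an adjusted p of 0.0737, without NAC library 2 one of 0.0763, and with quantile normalization one of 0.0616. Tinagl1, at 2.79 ± 0.262 FPKM in NAC and 1.57 ± 0.322 FPKM in Control (SD, n = 3 each, adjusted p = 0.0431), lost its call under most of the other settings (adjusted p up to 0.131), all leave-outs except that of Control library 2 included. The gene that was lower, named after its values were seen, was Ntn1, netrin-1, at 138 ± 7.49 FPKM in NAC and 163 ± 9.19 FPKM in Control (SD, n = 3 each, adjusted p = 0.0482). That value lies close to the threshold of 0.05, and the call was not followed under the other settings.

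Of 13 tested receptors for laminin and collagen IV, 2 were higher, with a median log2 fold change of 0.11. Itga3, the alpha subunit of a laminin-binding integrin, had 68.8, 67.0 and 65.4 FPKM in NAC, against 38.9, 41.3 and 37.5 FPKM in Control (log2 fold change 0.76, SE 0.047, adjusted p = 0.00052). Itgb1, the beta subunit shared by most matrix-binding integrins, had 347, 340.3 and 348 FPKM in NAC, against 291, 302 and 295 FPKM in Control (log2 fold change 0.22, SE 0.032, adjusted p = 0.0112). Its call was lost with library totals (log2 fold change 0.05, adjusted p = 0.291), with quantile normalization (0.04, adjusted p = 0.506) and without NAC library 1 (adjusted p = 0.0592) or 2 (adjusted p = 0.0537). The list held 4 calls without Control library 2 and 1 without NAC library 1 or 2. Dag1, the gene of dystroglycan and named after its values were seen, had 124, 128 and 125 FPKM in NAC and 133, 132 and 129 FPKM in Control (log2 fold change -0.06, SE 0.032, adjusted p = 0.271). The other 11 receptor genes did not pass the test, and whether this list differs from those of the ligands was not tested.

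Of 21 tested genes for folding, export and crosslinking of collagen IV, 13 were higher, with a median log2 fold change of 0.27. The prolyl 3-hydroxylase gene P3h1 averaged 61.8 ± 1.56 FPKM in NAC and 46.6 ± 0.903 FPKM in Control (SD, n = 3 each, adjusted p = 0.00242). Fkbp10, a prolyl isomerase, averaged 171 ± 2.57 FPKM in NAC and 137 ± 1.67 FPKM in Control (SD, n = 3 each, adjusted p = 0.00301). The lysyl hydroxylase gene Plod1 averaged 296 ± 5.18 FPKM in NAC and 233 ± 5.49 FPKM in Control (SD, n = 3 each, adjusted p = 0.00302). The changes were small in size, but the libraries of each group lay close together. Plod3, whose enzyme also adds sugars to collagen IV, averaged 125 ± 2.41 FPKM in NAC and 95.7 ± 3.41 FPKM in Control (SD, n = 3 each, adjusted p = 0.00316). The disulfide isomerase P4hb, a subunit of prolyl 4-hydroxylase, averaged 929 ± 43.1 FPKM in NAC and 698 ± 12.5 FPKM in Control (SD, n = 3 each, adjusted p = 0.00365). These enzymes also serve the fibrillar collagens. Named after its values were seen, peroxidasin (Pxdn), which makes the sulfilimine crosslink particular to collagen IV, had 63, 60 and 55.6 FPKM in NAC, against 44.7, 40.4 and 46.3 FPKM in Control (log2 fold change 0.43, SE 0.067, adjusted p = 0.0139). The list held 6 calls with quantile normalization, where P4hb was lost (adjusted p = 0.0564), and 7 without NAC library 1 or 2.

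Of 17 tested proteases and inhibitors, 7 were higher and 1 lower, with a median log2 fold change of 0.15. Plau, the urokinase that activates plasminogen, had 32.5, 31.7 and 29.8 FPKM in NAC, against 12.8, 15.4 and 13.0 FPKM in Control (log2 fold change 1.14, SE 0.077, adjusted p = 0.000636). Tll1, a protease of the tolloid family, was lower, with 9.32, 9.43 and 10.4 FPKM in NAC, against 14.3, 15.6 and 15.0 FPKM in Control (log2 fold change -0.58, SE 0.062, adjusted p = 0.00365). The lysosomal cathepsins Ctsl (498 ± 9.05 FPKM in NAC and 397 ± 11.3 FPKM in Control) and Ctsb (893 ± 23.4 FPKM in NAC and 706 ± 17.3 FPKM in Control) were higher (SD, n = 3 each, both adjusted p = 0.00391), and both calls were lost with quantile normalization (adjusted p = 0.0956 for Ctsl and 0.079 for Ctsb). Mmp2, the gelatinase that cleaves collagen IV, was the most abundant of those called, at 2925 ± 38.8 FPKM in NAC and 2529.5 ± 92.8 FPKM in Control (SD, n = 3 each, adjusted p = 0.0286). Its direction turned with quantile normalization (log2 fold change -0.04), and its call was lost with library totals (adjusted p = 0.477) and when any 1 library other than Control library 2 was left out (adjusted p 0.0758 to 0.107). Without NAC library 1, 2 or 3 or Control library 3 the list held 3 calls, and without Control library 1 it held 4.

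**Figure D4:**
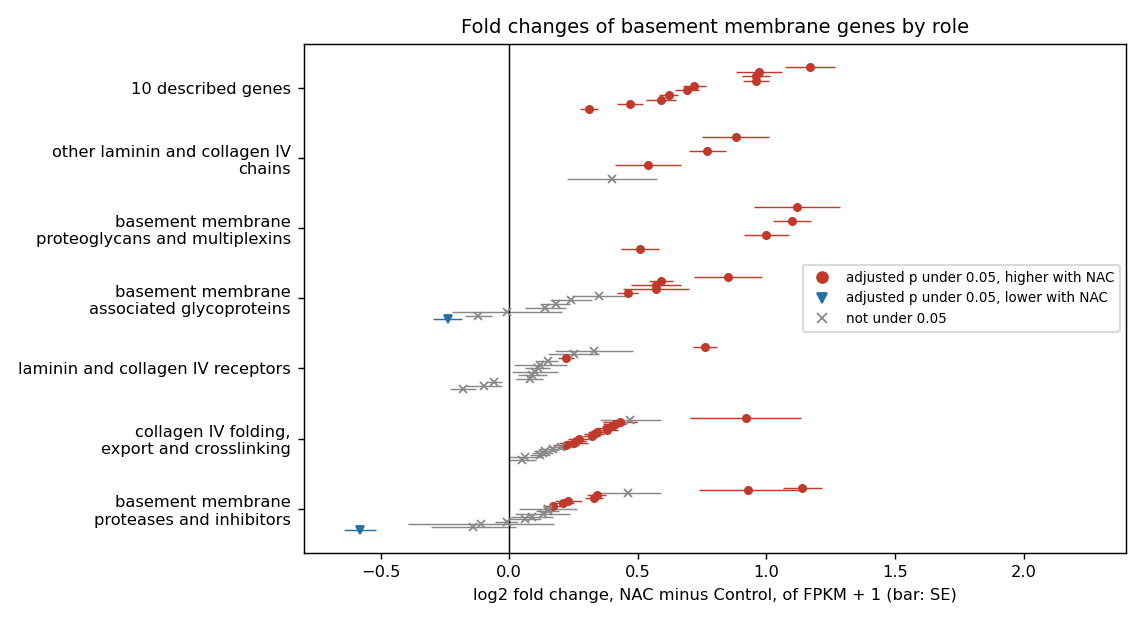
Log2 fold changes of FPKM + 1, NAC minus Control (x axis, bars are the SE), of the 10 described genes and of the tested genes in 6 further basement membrane lists (rows); red circles are higher and blue triangles lower at an adjusted p under 0.05, grey crosses did not pass. The 4 proteoglycans and multiplexins lie in the range of the 10 genes, while most of the 13 receptors lie near 0.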

How the data were processed

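The authors deposited 1 table of FPKM values for 33300 genes, 755 of them unannotated loci. An RNeasy kit served for RNA and a SMARTer mRNA-Seq kit for the libraries, per the labels' protocols. Aligner, counting method and strand setting were not given in the sources used here. Mouse builds (GRCm38 and mm10) stand in the submitters' processing notes, yet the identifiers are rat ones, so the build of the deposited coordinates is unknown. The columns headed NAC with a number match their titles, and those headed N were taken as Control by elimination.

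FPKM times gene length was, for 100.00% of values and to within 0.01, a whole multiple of a step fixed for each library, from which reads were recovered. Each library was counted as 1 sample. The replicates of a group differed by more than counting error (chi-square per degree of freedom 3.46 to 8.71), which does not show whether they are independent cultures. Genes averaging 1 FPKM or more were tested on log2(FPKM + 1) with limma 3.58.1 in R 4.3.3 (lmFit with group alone as term, then eBayes with trend, two-sided), adjusted by Benjamini-Hochberg over all tested genes; the procedure was tested on simulated data. The 16 alternatives were no filter, a stricter filter (mean FPKM 5 or more), 0.1 as pseudocount, scaling by median-of-ratios, by quantiles or by library totals, voom on the recovered reads, eBayes without trend and with robust estimation, a replicate block, and leaving out each of the 6 libraries.

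The 10 genes and all lists were chosen with earlier results of these data known. Named from each pathway list were up to 5 genes with the lowest adjusted p among those called, and from each marker list the most abundant gene. Further marker genes, and Ntn1, Dag1 and Pxdn, were named outside that rule, after their values were seen. Of 171 list entries 1 was matched through an older name in the RefSeq gene table and 4 had no row matched. Promoter sequences are RefSeq's, build GRCr8. Figures used Python 3.11.15, numpy 2.4.6, pandas 2.3.3 and matplotlib 3.10.9.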

Additional observations from a re-analysis of the deposited data

How the results depend on the processing

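All 10 genes were higher and past the threshold under each of the 16 alternatives, except that Lama2 was under the stricter filter of 5 FPKM (9 genes called there). Their median log2 fold change of 0.70 was 0.59 with quantile normalization, 0.53 with library totals and 0.68 to 0.74 with 1 library left out. Over all genes 774 were higher, against 467 with library totals, 1035 with voom and 264 to 859 with 1 library left out, the lowest without NAC library 2; 346 were lower, against 207 with no filter, 3722 with library totals, 529 with voom, 206 without trend and 51 to 347 with 1 library left out. With quantile normalization, glycoproteins called higher numbered 2 in place of 5, receptors 1 in place of 2, folding genes 6 in place of 13 and proteases 2 in place of 7. Library totals gave 1 receptor and 4 proteases, no filter gave 4 proteases, and eBayes without trend gave 3. With 1 library left out, the calls ranged from 1 to 3 of the other chains, 2 to 4 proteoglycans, 2 to 7 glycoproteins, 1 to 4 receptors, 7 to 12 folding genes and 3 to 6 proteases. The direction of Mmp2 reversed to -0.04 with quantile normalization. The causes of these changes were not tested. With 1 library left out, the spread was pooled over the remaining 5 libraries.

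The labels do not say whether the replicate numbers pair the libraries. Over all tested genes, deviations of same-numbered NAC and Control libraries correlated at 0.0627, 0.0589 and -0.0502. Those of differently numbered libraries correlated at -0.113 to 0.065. With 3 libraries per group, such values cannot decide whether the libraries were paired. With the replicate block 466 genes were higher and 110 lower, 4 proteases were called, and Lamb3, Tinagl1 and Mmp2 lost their calls, while the 10 genes kept theirs. Lama2, at 223 to 684 reads per library, had the fewest reads of the 10 genes.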
